A study of Homo sapiens with 5 samples.

Results

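The genes described here encode enzymes that use 2-oxoglutarate and iron to oxidise chromatin, DNA, RNA and related substrates. They were taken as the 40 symbols of a list of such oxygenases, each found in the count table under its own symbol, out of 57905 genes with counts. For 5 symbols a second identifier was listed with an empty value, so the identifier with reads was used. Total RNA was sequenced from SVG-10B1 cells, an established astroglial line of human origin, and from edited derivatives of it that carry IDH1 R132H/WT, meaning that 1 allele of IDH1 has the R132H substitution. There were 2 libraries of the wild-type line (the labels number it clone 1), 1 library of edited clone 2 and 2 libraries of edited clone 6. All 5 came from the same line and were grown in the same serum-containing medium. Each edited line is 1 clone, and no unedited sister clone was analysed here, so effects of the edit and of the clone cannot be told apart. Whether replicates came from separate cultures is not stated in the labels, and p-values then reflect only the spread among these libraries, possibly a technical one.

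These enzymes bind iron and 2-oxoglutarate, split molecular oxygen, and release succinate and carbon dioxide as they hydroxylate a substrate. When the substrate is a methyl group on a nitrogen, the hydroxylated product falls apart and the methyl group is lost, which is how the JmjC lysine demethylases and the AlkB family remove methyl marks from histones, DNA and RNA. TET enzymes instead oxidise the methyl group of 5-methylcytosine stepwise. Mutant IDH1 makes 2-hydroxyglutarate, which competes with 2-oxoglutarate in many of these enzymes. That inhibition acts on enzyme activity, which RNA counts do not measure.

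Reads assigned to genes ranged from 13572114 to 21881726 per library, and 0.196 to 0.219% of them fell in the 40 genes. Ribosomal RNA genes took 0.417 to 9.79% of reads, without order by genotype. IDH1 itself had 117 and 119 CPM (the read count relative to library size, scaled by the TMM method) in wild type and 104 to 111 CPM in the edited libraries, and gene counts cannot show the edit. Edited clone 2 and the library labelled clone 6 replicate 1 were closer to each other than labelled replicates were: over the dioxygenases tested, their median absolute log2 difference was 0.05, while it was 0.11 within wild type and 0.21 within clone 6. Of 10 astrocyte markers, the defining genes AQP4 and S100B had 0 reads and 1 read over all libraries and GFAP 35 reads, while GJA1 and GLUL were abundant. The list summed to 244 and 259 CPM in wild type and 404 to 499 CPM in the edited libraries, where GJA1 rose from 162 to 389 CPM, GLUL fell from 72.0 to 34.8 CPM and the median log2 fold change of the 5 tested markers was -0.53. Summed markers of microglia and leukocytes were 1.6 to 2.36 CPM in wild type and lower, at 0.751 to 1.23 CPM, in the edited libraries, mostly CSF1R, with CX3CR1 at 0 reads. Those of endothelium were 1.06 to 1.38 and 1.00 to 1.55 CPM. Summed neuron markers were 7.26 and 7.32 CPM in wild type and 19.4 to 22.3 CPM in the edited libraries, with STMN2 at 0 reads. Mostly this was GAD1, which rose from 5.19 to 12.7 CPM, and INA, which rose from 0.809 to 6.61 CPM. SNAP25, RBFOX3, SLC17A7 and SYT1 stayed under 1 CPM in every library, and SYT1 fell from 0.272 to 0.0685 CPM. Fibroblast and pericyte markers summed to 1750 and 1964 CPM in wild type and 551 to 1740 CPM in the edited libraries, almost all COL1A1, which was at 512 CPM in clone 6 replicate 2 and at 1607 and 1645 CPM in the other edited libraries. Of this list RGS5 rose from 6.20 to 52.0 CPM and PDGFRB fell from 57.8 to 24.4 CPM. Oligodendrocyte markers, with MOG, OLIG1 and OLIG2 at 0 reads, and epithelial markers had like sums in both genotypes (8.80 to 10.7 and 98.9 to 109 CPM). The part of these shifts in the results below was not tested.

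Per kilobase of exon, ALKBH5 was the most abundant of the 40 transcripts in wild-type cells. ALKBH5 removes N6-methyladenosine from messenger RNA, and its level per length was 55.3 and 49.5 CPM per kilobase in the 2 wild-type libraries. The H3K9 demethylase KDM3B followed with 18.8 and 17.8 CPM per kilobase. KDM5C, a demethylase of H3K4, had 18.1 and 16.9 CPM per kilobase, which overlaps the values of KDM3B. KDM5A, ASPH, ALKBH1, KDM4A and OGFOD1 came next at means of 15.3, 14.9, 12.8, 12.6 and 12.3 CPM per kilobase, with overlapping libraries between KDM5A and ASPH and among ALKBH1, KDM4A and OGFOD1. The methylcytosine dioxygenases were low per length, with TET3 at a mean of 3.40, TET2 at 2.90 and TET1 at 1.99 CPM per kilobase. At the bottom of the tested genes stood KDM6B, ALKBH6, OGFOD2 and HR, all under 1 CPM per kilobase. These levels use exon lengths of GENCODE 29, which is not the annotation of the counts, so a gene with many rarely used exons, such as FTO with 21.4 kilobases, is understated.

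**Figure D1:**
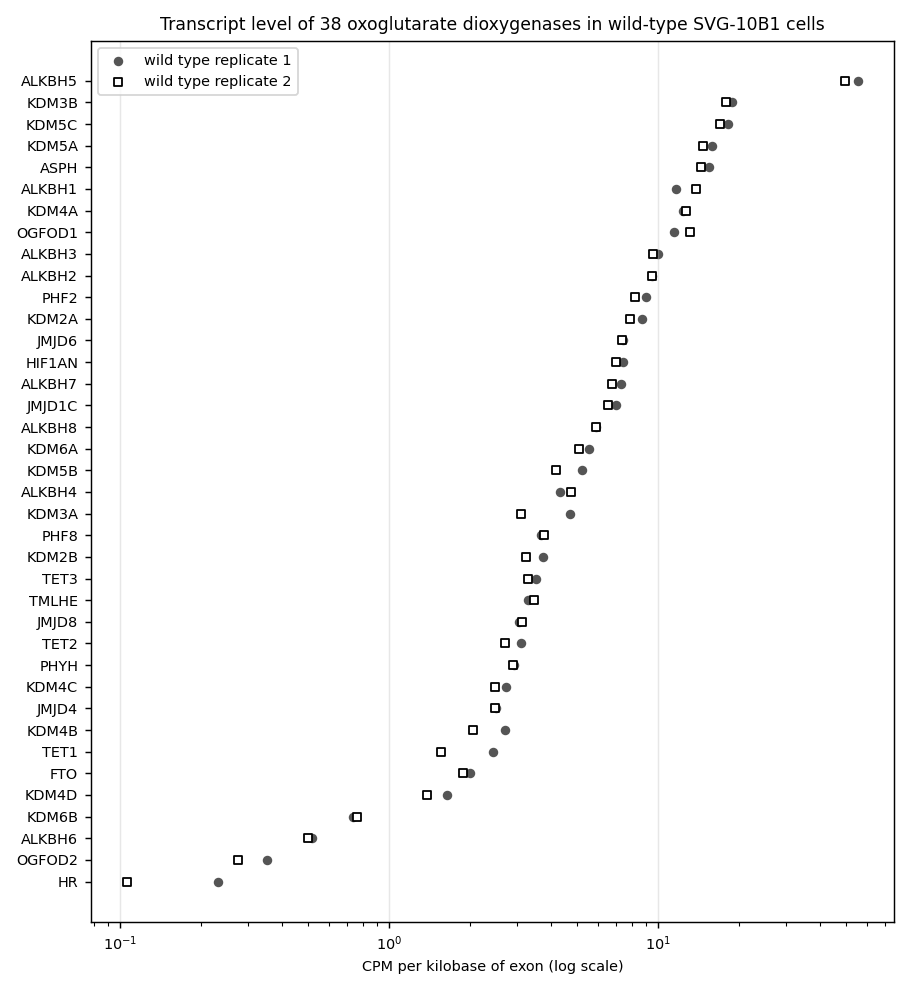
Level per length of the 38 tested dioxygenases in wild-type SVG-10B1 cells, in CPM per kilobase of GENCODE 29 exon on a log axis, with 1 point per wild-type library. ALKBH5 lies apart at about 50 CPM per kilobase, most genes lie between 1 and 20, and HR is lowest.

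The filter on low counts kept 38 of the 40 genes. BBOX1, the last enzyme of carnitine synthesis, had 0 reads in all 5 libraries, where 3 reads would be 0.139 to 0.230 CPM. PHYHD1, a relative of phytanoyl-CoA hydroxylase, had 4 and 2 reads in wild type, 0 in clone 2, and 1 and 2 in clone 6. Both stayed out of the tests, and no difference was detectable in them at this depth.

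The comparison of the 3 edited with the 2 wild-type libraries asked whether transcripts of these enzymes differ when IDH1 is mutant. KDM2A and PHF2 fell and PHYH rose, and the other 35 tested genes did not pass the test (edgeR quasi-likelihood test, Benjamini-Hochberg adjusted over 16471 genes, threshold 0.05). These 3 of 38 are 7.89%, against 17.1% of all genes tested in either direction, 7.64% higher and 9.49% lower. At an unadjusted p below 0.05 there were 10 of 38 dioxygenases (26.3%), against 32.8% of all genes. The median absolute log2 fold change was 0.20 for the dioxygenases and 0.30 for all genes, and the signed medians were -0.04 and 0.02. None reached 2-fold, which 12.4% of all genes did, and 4 of 38 passed 1.5-fold, against 26.4%. For 31 of the 35 genes that did not pass, the 95% interval of the log2 fold change lay within 2-fold in both directions, and the exceptions were TET1, HR, KDM4D and OGFOD2. By library, 18 of 38 (47.4%) had all edited libraries on one side of both wild-type libraries, 11 below and 7 above, against 51.5% of all genes (25.3% below and 26.1% above).

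**Figure D2:**
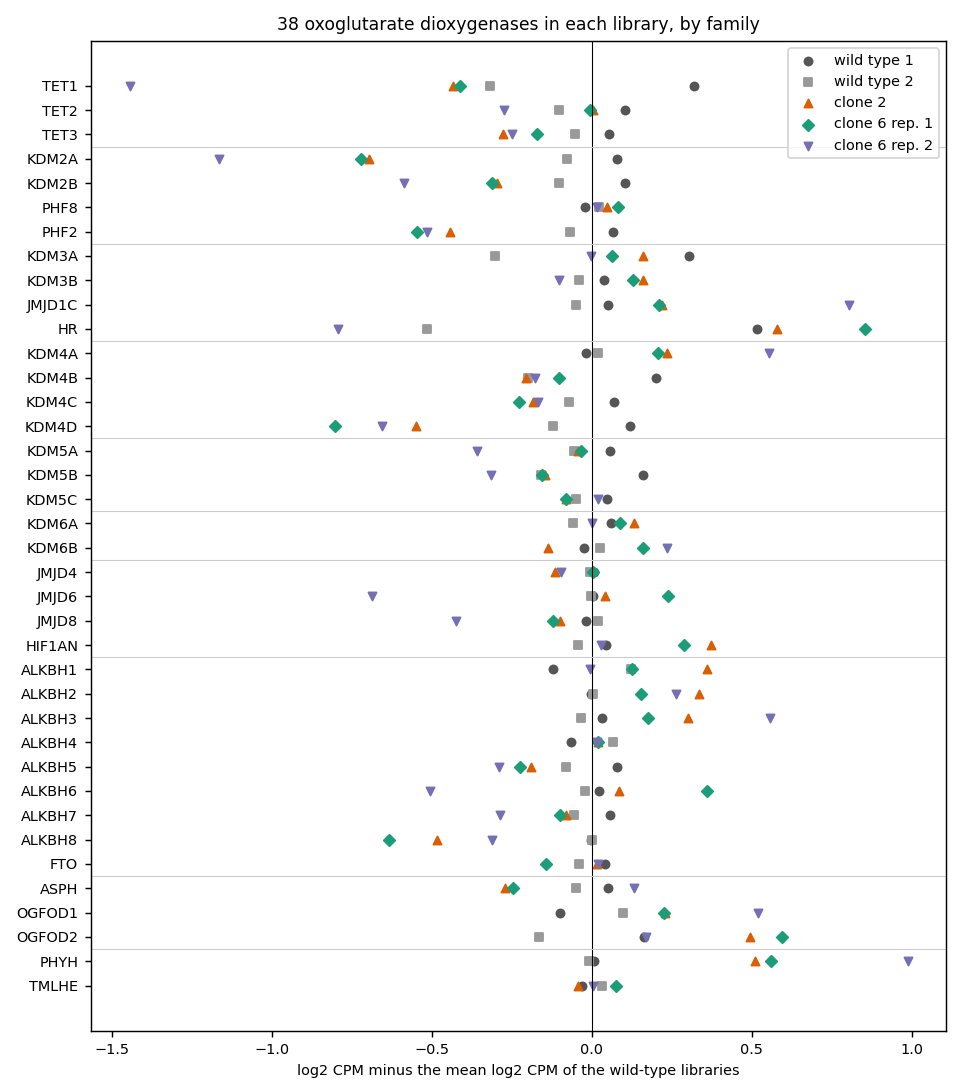
Each of the 38 tested dioxygenases in each library, as log2 CPM minus the mean of the wild-type libraries; lines part the enzyme families. Most points lie within 0.5 of zero, KDM2A and PHYH are displaced in all edited libraries, and clone 6 replicate 2 lies apart from the other edited libraries for TET1, JMJD1C and JMJD6.

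The sequences before the start sites of 6 genes described below are shown. The genes are PHF2, PHYH and TET1, and KDM2A, KDM4D and ALKBH8, which share the long arm of chromosome 11. The relation of these sequences to transcript levels was not tested. They come from RefSeq windows on GRCh38.p14, which matched 37 of the 40 genes, and only bases outside all GENCODE 29 exons are printed, 5′ to 3′ on the strand of the gene. Capitals mark CpG dinucleotides, the sites where TET enzymes oxidise methylcytosine and that the zinc finger of KDM2A binds when unmethylated. KDM2A is on the plus strand at chr11:67119013-67119262, KDM4D on plus at chr11:94973613-94973680, ALKBH8 on minus at chr11:107565747-107565985, PHF2 on plus at chr9:93576334-93576406, PHYH on minus at chr10:13299764-13299967 and TET1 on plus at chr10:68560087-68560336.
KDM2A: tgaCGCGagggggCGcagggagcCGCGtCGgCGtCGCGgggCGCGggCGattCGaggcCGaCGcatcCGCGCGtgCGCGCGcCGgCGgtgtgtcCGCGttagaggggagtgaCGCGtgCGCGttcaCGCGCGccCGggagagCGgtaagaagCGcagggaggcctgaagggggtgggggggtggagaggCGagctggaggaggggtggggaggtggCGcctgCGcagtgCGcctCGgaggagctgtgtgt
KDM4D: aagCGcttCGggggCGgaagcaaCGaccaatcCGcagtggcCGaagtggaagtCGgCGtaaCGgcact
ALKBH8: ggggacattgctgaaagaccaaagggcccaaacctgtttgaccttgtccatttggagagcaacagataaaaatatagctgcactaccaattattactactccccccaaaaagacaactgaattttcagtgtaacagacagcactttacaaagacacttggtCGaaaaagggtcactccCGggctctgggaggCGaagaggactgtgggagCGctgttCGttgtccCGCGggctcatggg
PHF2: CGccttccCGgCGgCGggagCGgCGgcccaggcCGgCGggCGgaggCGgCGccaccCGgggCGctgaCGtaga
PHYH: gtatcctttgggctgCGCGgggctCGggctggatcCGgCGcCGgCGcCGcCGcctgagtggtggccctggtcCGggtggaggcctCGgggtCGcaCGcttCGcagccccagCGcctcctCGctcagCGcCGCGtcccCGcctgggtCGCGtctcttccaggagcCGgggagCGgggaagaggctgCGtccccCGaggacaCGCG
TET1: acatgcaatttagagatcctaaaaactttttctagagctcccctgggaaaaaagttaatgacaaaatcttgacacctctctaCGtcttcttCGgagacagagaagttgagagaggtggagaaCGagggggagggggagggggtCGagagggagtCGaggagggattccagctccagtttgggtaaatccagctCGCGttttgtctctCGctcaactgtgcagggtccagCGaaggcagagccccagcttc
In the full 250 bases before these starts, KDM2A had 40 CpG sites, PHF2 46, PHYH 33, KDM4D 22, TET1 9 and ALKBH8 7, where the median of 35097 windows was 11 and 2.16% had 40 or more. A second window of KDM2A had 9 CpG sites, and further windows of TET1 had 4 and 11. Of all windows, 47.8% had 9 or fewer CpG sites. The letters GCGTG, on either strand, were in 28 of 57 windows of the dioxygenases (49.1%) and in 32.2% of all windows, where the dioxygenase windows had a median of 17 CpG sites and GCGTG itself holds one, and ACGTG in 8 of 57 windows and 18.5% of all. Several genes have more than 1 window, and some windows of 1 gene overlap, as in KDM3A, ALKBH6 and OGFOD1. The windows are therefore not independent, and which start is used in these cells was not measured.

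Among the TET enzymes, which start the removal of DNA methylation by oxidising 5-methylcytosine, none of 3 passed the test. TET1 had 22.6 and 14.5 CPM in the wild-type libraries, 13.4 CPM in edited clone 2, and 13.6 and 6.57 CPM in the clone 6 libraries. All edited libraries lay below both wild-type libraries, but clone 2 and clone 6 replicate 1 were only just below wild-type replicate 2, and the wild-type libraries themselves were far apart. The log2 fold change was -0.74 (SE 0.334, 95% interval -1.53 to 0.06, adjusted p = 0.179), and it was -0.38 when wild-type replicate 1 was left out, -1.02 when replicate 2 was, and -0.48 without clone 6 replicate 2. With no filter on low counts TET1 passed (log2 fold change -0.76, adjusted p = 0.000552). That setting left its fold change nearly the same and raised the calls over all genes from 2822 to 4274. TET2 had 51.2 and 44.3 CPM in wild type and 47.7, 47.4 and 39.4 CPM in clone 2 and clone 6 replicates 1 and 2, so the groups overlapped. TET3 was lower in every edited library, with 34.4, 37.0 and 35.0 CPM against 43.2 and 40.2 CPM in wild type. Its log2 fold change of -0.23 did not pass (95% interval -0.47 to 0.004, adjusted p = 0.158).

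The KDM2 and PHF demethylases held both genes that fell. KDM2A removes methyl groups from H3K36 and binds unmethylated CpG sites through a CXXC zinc finger. Its wild-type libraries stood at 90.7 and 81.3 CPM, edited clone 2 at 52.9 CPM, and clone 6 replicates 1 and 2 at 52.1 and 38.3 CPM. The groups were far apart, and clone 6 replicate 2 was the lowest. The mean went from 86.0 ± 6.62 CPM (SD, n = 2) to 47.8 ± 8.22 CPM (SD, n = 3), which is 44.5% lower (log2 fold change -0.85, SE 0.154, adjusted p = 0.0133). When wild-type replicate 1 or 2 was left out, the log2 fold change was -0.77 or -0.93 and the adjusted p 0.136 or 0.0816, while it passed with any 1 edited library left out. PHF2, a demethylase of H3K9 that reads methylated H3K4, fell from 50.2 and 45.7 CPM in wild type to 35.2 CPM in edited clone 2 and to 32.8 and 33.5 CPM in the clone 6 libraries. The edited libraries were close to one another and all lay below wild type (log2 fold change -0.50, SE 0.100, adjusted p = 0.0183). The adjusted p of PHF2 was 0.173 with wild-type replicate 1 left out and 0.0877 with replicate 2 left out, 0.0581 without clone 2, 0.0722 without clone 6 replicate 1, and 0.0588 with clone 2 and clone 6 replicate 1 summed into 1 library.

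The remaining members of that group did not pass. KDM2B, the H3K36 demethylase that recruits a Polycomb complex to CpG islands, had 50.8 and 44.1 CPM in wild type and 38.5, 38.1 and 31.5 CPM in clone 2 and clone 6 replicates 1 and 2. All edited libraries were below wild type (log2 fold change -0.40, adjusted p = 0.0833), and it passed with no filter on low counts (0.0355) and without clone 6 replicate 2 (0.0203). PHF8, which demethylates H3K9 and H4K20, was level, with 33.0 and 34.1 CPM in wild type and 33.9 to 35.5 CPM in the edited libraries (log2 fold change 0.05, 95% interval -0.18 to 0.28).

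**Figure D3:**
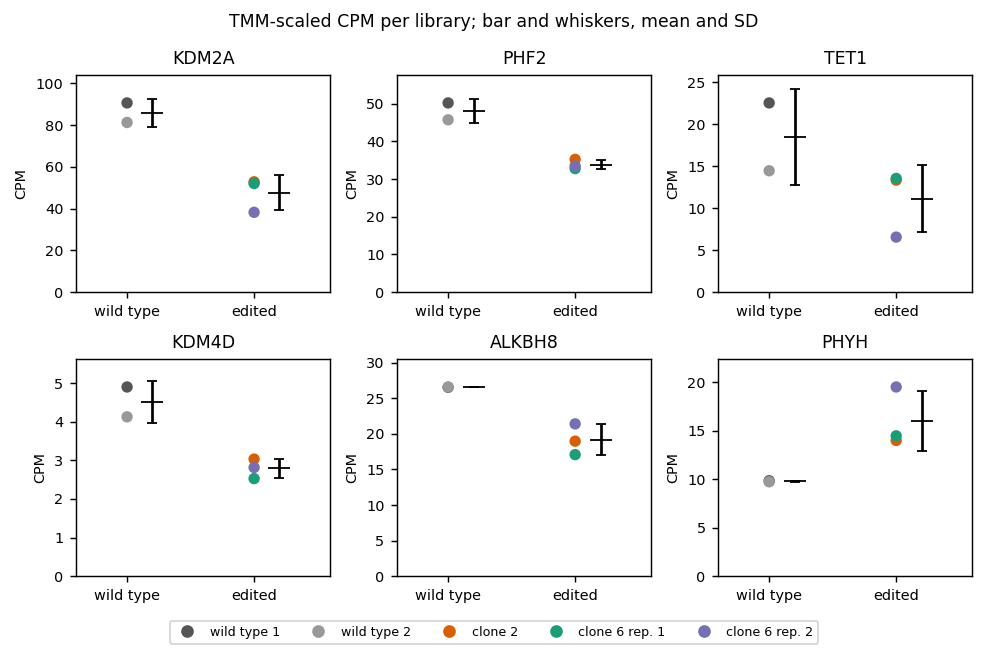
TMM-scaled CPM of KDM2A, PHF2, TET1, KDM4D, ALKBH8 and PHYH in each library (points), with the mean and SD of each genotype beside them. The genotypes are separate in all 6 panels, with PHYH higher and the others lower in the edited libraries, and for TET1 the gap is smaller than the distance between the wild-type libraries.

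None of the 4 members of the KDM3 group, which acts on mono- and dimethylated H3K9, passed. KDM3A had 63.3 and 41.5 CPM in wild type, wider apart than its edited libraries at 57.3, 53.5 and 51.1 CPM. KDM3B overlapped between groups, at 150 and 142 CPM in wild type and 136 to 163 CPM in the edited libraries. JMJD1C was above wild type (76.9 and 71.9 CPM) in clone 2 at 86.6 CPM, in clone 6 replicate 1 at 85.9 CPM and, well apart from these, in clone 6 replicate 2 at 129.8 CPM. Its log2 fold change was 0.44 (adjusted p = 0.171), and it was 0.20 without clone 6 replicate 2 (adjusted p = 0.0461). HR, the hairless corepressor of skin and hair follicle, had 12 to 44 reads per library and no order by genotype.

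Of the 4 demethylases of the KDM4 group, which act on trimethylated H3K9 and in part on H3K36, none passed and they lay on both sides of wild type. KDM4A had 64.2 and 65.9 CPM in wild type and was higher in every edited library, with 76.6, 75.1 and 95.4 CPM in clone 2 and clone 6 replicates 1 and 2 (log2 fold change 0.34, adjusted p = 0.115). KDM4D, a short member of the group without the reader domains of the others, had 4.90 and 4.13 CPM in wild type, 3.03 CPM in edited clone 2, and 2.53 and 2.81 CPM in the clone 6 libraries. Every edited library was below wild type, on 33 to 106 reads per library (log2 fold change -0.69, SE 0.20, adjusted p = 0.0590). Without clone 6 replicate 2, KDM4A passed at a log2 fold change of 0.21 (adjusted p = 0.0373) and KDM4D at -0.71 (adjusted p = 0.0266). KDM4C was slightly below in each edited library (22.9 to 23.9 against 25.6 and 28.2 CPM), and KDM4B overlapped (29.9 to 32.2 against 30.1 and 39.7 CPM).

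All 5 demethylases of the KDM5 and KDM6 groups overlapped between the genotypes. In the KDM5 group, which removes trimethylation of H3K4, KDM5A, KDM5B and KDM5C had log2 fold changes of -0.14, -0.21 and -0.05, and the interval of KDM5C ran from -0.26 to 0.16. KDM6A and KDM6B, which remove trimethylation of H3K27, had log2 fold changes of 0.07 (95% interval -0.17 to 0.32) and 0.10 (-0.34 to 0.53). KDM6A was at 36.3 and 39.4 CPM in wild type and 37.8 to 41.4 CPM in the edited libraries.

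Among the other JmjC hydroxylases 0 of 4 passed. HIF1AN, which hydroxylates an asparagine of hypoxia-inducible factors, had 103 and 97.0 CPM in wild type and reached 129.6 CPM in edited clone 2 and 122 CPM in clone 6 replicate 1, but 102 CPM in replicate 2. JMJD6, a lysyl hydroxylase of splicing factors, had 44.2 and 44.0 CPM in wild type, 45.4 CPM in edited clone 2, and in clone 6 it ranged from 27.3 CPM (replicate 2) to 52.0 CPM (replicate 1). In both genes clone 6 replicate 2 was low among the edited libraries, and the log2 fold changes without it were 0.32 for HIF1AN (adjusted p = 0.00431) and 0.13 for JMJD6. The translation termination factor hydroxylase JMJD4 had 9.93 to 10.8 CPM in all libraries. JMJD8, a protein of the endoplasmic reticulum, had 8.0 and 8.2 CPM in wild type and 6.0 to 7.55 CPM in the edited libraries.

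Of the 9 genes of the AlkB group, none passed with the settings used here. ALKBH8, which completes a modified wobble uridine in transfer RNA, had 26.5 and 26.6 CPM in wild type, 19.0 CPM in edited clone 2, and 17.1 and 21.4 CPM in the clone 6 libraries. The groups were well apart, and the log2 fold change of -0.47 (SE 0.131) had an adjusted p of 0.0534 in edgeR, just above the threshold. It passed under 8 of 14 alternatives, among them upper-quartile scaling (0.0422), a filter of 1 CPM (0.0451), DESeq2 (0.0306), a filter by genotype (0.0495) and without clone 6 replicate 2 (0.00158), so whether it counts as called rests on these choices. The pair of RNA N6-methyladenosine demethylases differed in pattern: ALKBH5 had 176 and 158 CPM in wild type and 137 to 146 CPM in the edited libraries (log2 fold change -0.24, adjusted p = 0.128), while FTO had 40.3 and 42.7 CPM in wild type and 37.5 to 42.1 CPM in the edited libraries (95% interval -0.28 to 0.21). That the pair differs from each other was not tested, and ALKBH5 passed without clone 6 replicate 2 (log2 fold change -0.22, adjusted p = 0.0298). ALKBH2 and ALKBH3, which repair alkylated bases in DNA, were above wild type in every edited library, ALKBH2 at 24.2 to 27.4 against 21.7 and 21.8 CPM and ALKBH3 at 26.3 to 34.3 against 22.7 and 23.8 CPM (adjusted p = 0.177 and 0.137). ALKBH4 was level at 10.5 CPM in wild type and 10.6 CPM in the edited libraries (means). ALKBH1, ALKBH6 and ALKBH7 had log2 fold changes of 0.16, 0.01 and -0.16, and ALKBH6 rested on 24 to 48 reads per library.

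Among the protein hydroxylases 0 of 3 passed. OGFOD1, which hydroxylates a proline of a ribosomal protein, had 66.3 and 76.1 CPM in wild type, 83.3 and 83.1 CPM in clone 2 and clone 6 replicate 1, and 101.8 CPM in clone 6 replicate 2 (log2 fold change 0.33, adjusted p = 0.127). ASPH, a hydroxylase of aspartate and asparagine in the endoplasmic reticulum, had the most reads of the 40 genes, with 310 and 289 CPM in wild type, 248 and 253 CPM in clone 2 and clone 6 replicate 1, and 328 CPM in clone 6 replicate 2. Clone 6 replicate 2 thus lay above wild type and the other edited libraries below it, and without that library the log2 fold change was -0.27 in place of -0.12 (adjusted p = 0.00584). OGFOD2 had 23 to 35 reads per library.

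PHYH was the only dioxygenase called higher, of 7 with every edited library above wild type. It encodes phytanoyl-CoA hydroxylase, the peroxisomal enzyme that begins the breakdown of the branched fatty acid phytanic acid. Its wild-type libraries stood at 9.84 and 9.74 CPM, edited clone 2 at 14 CPM, and clone 6 replicates 1 and 2 at 14.5 and 19.5 CPM. Every edited library lay above both wild-type libraries, and clone 6 replicate 2 was the highest. The mean rose from 9.79 ± 0.0748 CPM (SD, n = 2) to 16.0 ± 3.06 CPM (SD, n = 3), which is 63.4% higher (log2 fold change 0.71, SE 0.183, adjusted p = 0.0418). The call was lost when 1 wild-type library was left out (adjusted p = 0.225 for replicate 1 and 0.211 for replicate 2), without clone 2 (0.0628), without clone 6 replicate 1 (0.0726), and with clone 2 and clone 6 replicate 1 summed (0.0755). TMLHE, the first enzyme of carnitine synthesis, was level at 12.8 to 13.9 CPM in all libraries (95% interval -0.28 to 0.31).

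Each clone was also compared with wild type in a fit with 3 groups; both comparisons share the wild-type libraries. Clone 2, with 1 library that is assumed to vary like the others, had 0 of 38 dioxygenases past the threshold (3.81% of all genes), and DESeq2 also called 0. Clone 6 had KDM2A alone (8.98% of all genes), with log2 fold changes of -0.93 in clone 6 (adjusted p = 0.0275) and -0.70 in clone 2 (adjusted p = 0.155). PHF2 had -0.53 in clone 6 and -0.45 in clone 2 (adjusted p = 0.0602 and 0.226), and PHYH 0.80 and 0.52 (adjusted p = 0.0613 and 0.332). The difference between the clones was tested directly and passed for 0 of 38 dioxygenases and 0% of all genes in edgeR, with 0 dioxygenases and 114 genes (0.692%) at an unadjusted p below 0.05. DESeq2 called 0 dioxygenases. Leaving out clone 6 replicate 1 gives a fit with 1 library for each clone and takes the spread from the wild-type pair alone. Such a fit compares those libraries and not the clones. Values by clone rest on the labels of clone 2 and of clone 6 replicate 1, the libraries that were closer to each other than the clone 6 pair. Clone 6 replicate 2 was the edited library farthest from the median of the 3 in 25 of 38 dioxygenases, against 9 for clone 6 replicate 1 and 4 for clone 2. This is not particular to the dioxygenases. Over the more abundant of all genes, the median absolute log2 difference between clone 2 and clone 6 replicate 1 was 0.07. From clone 6 replicate 2 it was 0.23 to clone 6 replicate 1 and 0.22 to clone 2.

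The 3 dioxygenases on the long arm of chromosome 11 were KDM2A, KDM4D and ALKBH8, and all had lower levels in every edited library. The other 552 tested genes of that arm had a median log2 fold change of -0.49, with 494 of them below 0 and 38.8% called lower, against 9.49% of all genes tested. Their median by library was -0.48 in clone 2 and -0.48 and -0.50 in clone 6, and within 0.001 of 0 in wild type. On the short arm, which carries ALKBH3 (log2 fold change 0.35), the median was 0.07. Beside the 20 nearest tested genes on either side, ALKBH8 at -0.47 was higher than their median of -0.64, KDM4D at -0.69 was near their median of -0.57, and KDM2A at -0.85 lay 0.52 below their median of -0.33. KDM4A, at 0.34, lies on the short arm of chromosome 1, where the median of 934 other genes was 0.30 and that of its neighbours 0.46. ASPH, at -0.12, did not follow the long arm of chromosome 8, where 341 other genes had a median of 0.32, though its own neighbours had -0.07. By contrast, the neighbours of PHF2 on chromosome 9 and of TET1 on chromosome 10 had medians of 0.04 and -0.03, so PHF2 was 0.55 and TET1 0.71 below them, and PHYH was 0.50 above the 0.21 of its neighbours. Of 38 dioxygenases, 23 lay within 0.2 of the median of their neighbours, and 19 lay within 0.2 of 0 whatever their neighbours. The number of gene copies was not measured, and its part in these values was not tested.

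**Figure D4:**
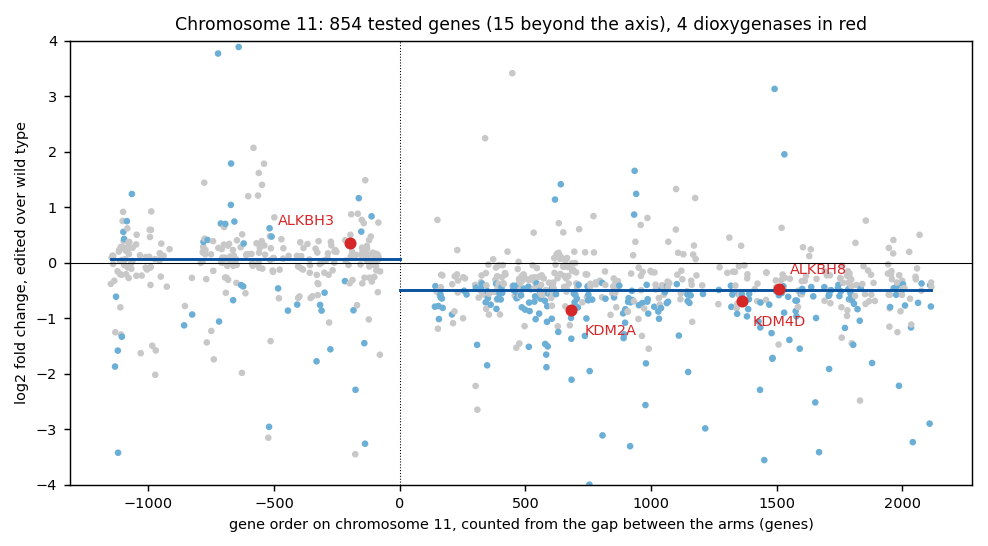
Log2 fold change (edited over wild type) of the 854 tested genes of chromosome 11 in gene order, counted from the gap between the arms; blue points passed the test, blue lines are the arm medians and red points are dioxygenases. The long arm, at right, is displaced to a median of -0.49, and KDM2A, KDM4D and ALKBH8 lie within that displaced cloud.

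**Figure D5:**
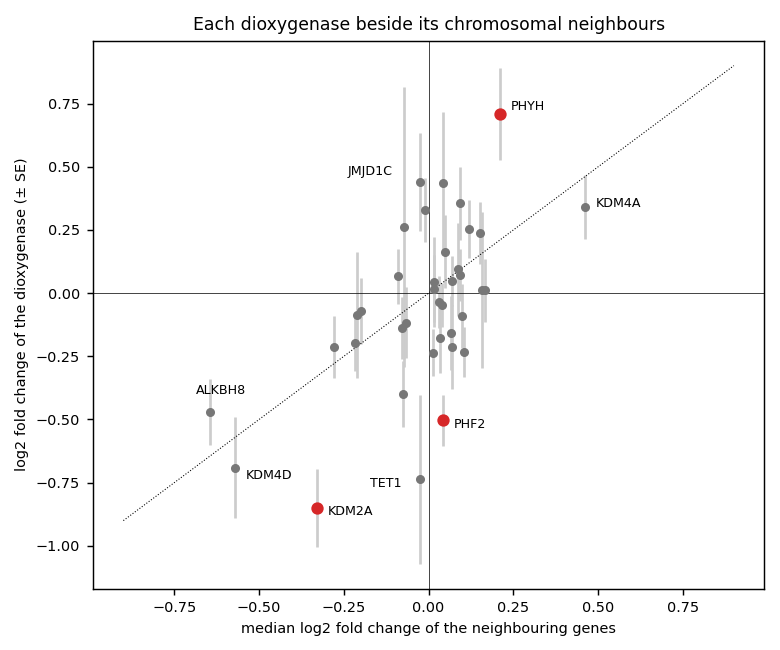
Log2 fold change of each of the 38 dioxygenases (± SE) against the median of its neighbouring tested genes, up to 20 on each side; red points passed the test and the dotted line marks equal values. ALKBH8, KDM4D and KDM4A lie near the line, and TET1, PHF2, KDM2A and PHYH lie 0.50 or more from it.

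Enzymes that place or read the opposing marks, and the other oxygenases of the same class, were counted in the same fit. Of all genes tested there, 17.1% were called, 9.49% lower and 7.64% higher in the edited libraries. Of 20 other tested 2-oxoglutarate oxygenases, mostly collagen and HIF hydroxylases, 4 fell and 1 rose, with a median log2 fold change of -0.05. The collagen prolyl hydroxylase P4HA2 fell from 78.7 to 23.1 CPM (log2 fold change -1.77, adjusted p = 0.0017), the HIF prolyl hydroxylase EGLN1 fell by 0.88 and the lysyl hydroxylase PLOD2 by 0.60 on the log2 scale. The collagen prolyl hydroxylase P3H2 rose from 84.8 to 290.9 CPM (log2 fold change 1.78, adjusted p = 0.000249). The flavin-dependent demethylases KDM1A and KDM1B, which do not use 2-oxoglutarate, did not pass. Of 27 tested histone lysine methyltransferases 3 fell and 0 rose, with a median of -0.07. These were KMT2A and KMT5B, which place methyl groups on H3K4 and H4K20, at -0.60 and -0.43, and NSD1, which methylates H3K36, at -0.48 on the log2 scale. KMT2A and KMT5B also lie on the long arm of chromosome 11. NSD1 does not follow its arm: it lies on the long arm of chromosome 5, where 633 tested genes had a median of 0.16. Of 13 writers and readers of N6-methyladenosine, the writer subunit ZC3H13 fell by 0.78 and the reader YTHDC2 rose by 0.42, and the median was 0.09. ZC3H13 lies on the long arm of chromosome 13, where 263 tested genes had a median of -0.43.

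Genes that work with TET enzymes or supply the cofactors were counted in the same way, beside the 17.1% of all genes called. Of 10 tested TET partners and factors that remove oxidised cytosine, 1 fell, the growth arrest gene GADD45G, on 54 reads in all (log2 fold change -2.88, adjusted p = 0.0170), and the median was 0.15. Of 13 genes of ascorbate and iron supply, 2 rose and 2 fell, with a median of -0.11. The ascorbate transporter SLC23A2 fell from 57.5 to 43.1 CPM and ACO1, the iron-sensing RNA-binding protein, from 419 to 222 CPM (adjusted p = 0.0241 and 0.03). The ferritin light chain FTL rose from 1700 to 2550 CPM and SLC2A1, a transporter of glucose and oxidised ascorbate, from 167 to 305 CPM (adjusted p = 0.0267 and 0.0468).

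Counting sets limits for some of these genes. By GENCODE 29, 19 of the 40 dioxygenases share exonic bases with another gene, and in KDM4A, JMJD4, JMJD8, ALKBH4, ALKBH6 and OGFOD2 more than 20% of the exonic bases are shared. No strand setting is given in the sources used here, so reads of these genes and their neighbours may not be told apart. KDM2A, PHF2, PHYH, TET1, KDM4D and ALKBH8 share none.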

How the data were processed

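Total RNA of 5 SVG-10B1 libraries was sequenced on Illumina HiSeq, per the labels' protocols. The authors deposited whole-number read counts per gene for each library, not normalized. The submitters' processing notes list Trimmomatic, STAR, HTSeq and hg19 with neither versions nor roles. No annotation release or strand setting is given in the sources used here. Of 63677 genes listed, 5772 had an empty value and were not used.

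In edgeR 4.0.16 (R 4.3.3), filterByExpr with the 3 clone groups kept 16471 genes, which were scaled by TMM and fitted by quasi-likelihood, with 3 residual degrees of freedom for genotype and 2 for the model of 3 groups. CPM use TMM-scaled library sizes, and log2 CPM a prior count of 2. SE is the log2 fold change divided by the root of F, and 95% intervals use it with the moderated degrees of freedom. Exon lengths, gene order and chromosome arms came from GENCODE 29 (GRCh38) by gene identifier, with arms parted at the widest gap between genes. The design's named genes were all members, in full where a comparison called them or where separate groups differed by 1.5-fold or more, and up to 4 called genes per other list. Other genes were chosen after their values were seen. The members, lists and tests were chosen with earlier results of these data known. The procedure was tested on simulated data. Alternatives were scaling, filter, DESeq2 1.42.0, removal of ribosomal RNA genes, each library left out, summed libraries and a replicate block; the filter by genotype was chosen after seeing the data.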

Additional observations from a re-analysis of the deposited data

Results flagged for a closer look

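KDM6B, a demethylase of H3K27, lay on opposite sides of wild type in the edited clones. Its level was 5.31 and 5.50 CPM in wild type, 4.90 CPM in clone 2, below both, and 6.05 and 6.38 CPM in clone 6, above both. The log2 difference between clone 6 and clone 2 was 0.34, and the test of that difference did not pass (unadjusted p = 0.247, adjusted p = 1, edgeR). The gene rested on 76 to 115 reads per library, and the cause was not tested.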

How the results depend on the processing

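Over 14 alternatives, 470 of 532 recomputed log2 fold changes kept their direction and side of the threshold, 12 lost a call, 24 gained one and 26 changed sign, in 10 genes. Without a filter on low counts, 4274 genes were called in all, 2 dioxygenases higher and 5 lower, with 1 in clone 2 and 5 in clone 6. With clone 2 and clone 6 replicate 1 summed the counts were 1520, 0 and 1. The replicate numbers pair no samples by the labels, and replicate 1 deviations of wild type and clone 6 correlated at 0.17 over genes. With replicate number as a block, 4499 genes, 3 dioxygenases higher and 7 lower, 1 in clone 2 and 4 in clone 6 were called. The calls gained there were TET1 (-0.90, adjusted p = 0.00425), KDM2B, KDM4A, KDM4D, ALKBH5, ALKBH8 and OGFOD1. Leaving out 1 library, where a lone library is assumed to vary like the other group, gave 500 to 5971 genes called (500 without wild-type replicate 1 and 697 without replicate 2, 5971 without clone 6 replicate 2), 0 to 4 dioxygenases higher, 0 to 7 lower, 0 to 4 in clone 2, 0 to 11 in clone 6, 0 to 2 between the libraries of the clones, and 19 to 29 with separate groups (29 without wild-type replicate 2 and 28 without clone 6 replicate 2). Without clone 6 replicate 2 the edited libraries are the nearly identical pair. With fewer libraries, separate groups are easier to reach for any gene. The share of all genes with separate groups was not computed with a library left out. Nor were shares of all genes called in the clone comparisons computed under the alternatives. Those counts of dioxygenases therefore have no background to be read against. Of the genes that changed sign, over the left-out libraries TET2 ranged from -0.19 to 0.013, KDM3A from -0.23 to 0.38, HR from -0.17 to 0.94, KDM4B from -0.36 to 0.035, KDM6B from -0.00081 to 0.20, JMJD6 from -0.28 to 0.13, ALKBH4 from -0.051 to 0.084, ALKBH6 from -0.19 to 0.22, FTO from -0.077 to 0.018 and TMLHE from -0.024 to 0.042. Without a filter ALKBH4 was -0.0025, ALKBH6 -0.010 and TMLHE -0.0092. With DESeq2 size factors ALKBH6 was -0.00025 and TMLHE -0.00074. With the libraries summed they were -0.088 and -0.0066, and with the replicate block ALKBH6 was -0.068. TMLHE was -0.00088 with DESeq2 and -3.5e-05 without ribosomal RNA genes. The causes were not tested. At 0 to 48 reads per library, BBOX1, PHYHD1, HR, ALKBH6 and OGFOD2 are limited by depth.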
